A study of Mus musculus with 2 samples.

Results

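Respiratory complex I is the proton-pumping enzyme that passes electrons from NADH to ubiquinone in the inner mitochondrial membrane. Its L shape has a matrix arm, which holds the NADH-oxidising N module and the ubiquinone-binding Q module, and a membrane arm, which pumps protons. The nuclear genome encodes the catalytic core subunits of the matrix arm and all accessory subunits, while mitochondrial DNA encodes the core of the membrane arm, and Ndufaf proteins are assembly factors that leave before the enzyme is complete. The genes described here were all named records whose symbol begins with Nduf followed by a, b, c, s, v, ab or af and a number, leaving out symbols with -ps. There were 49 of them among 55487 named records, 41 with subunit names and 8 Ndufaf genes. Where subunits are counted together they are counted by name, with Ndufa4 and pseudogenes such as Ndufb4c included. The set was put together with its values in these 2 libraries known, for the contrast between Ndufa5 and the rest, so what follows is description and none of it was tested.

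The study used LPC-HRas cells, which the labels call mouse hepatocellular carcinoma cells. One lentivirus carried shETV4, a short hairpin RNA against the transcription factor gene Etv4. The comparison culture received a lentivirus with the control hairpin shRFP, so both cultures were infected and both are of the HRas line. There was 1 library per group, and the labels do not say how many hairpin sequences, clones or pools stand behind each culture. No difference therefore has a replicate check, and no p-value or standard error exists for any of them.

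Values are TPM, a level scaled both by transcript length and by library total. They hold no record of depth, so the counting error behind each value is unknown. A difference is log2(TPM + 1) with shETV4 minus log2(TPM + 1) with shRFP, which shrinks differences of weakly expressed genes. The 12968 genes that reached 1 TPM in either library were evaluated and called higher or lower at a 2-fold difference on that scale. Etv4 was at 16.2 TPM with shETV4, against 73.2 TPM with shRFP. The 8 hepatocyte markers examined were all under 1 TPM in both libraries, with summed levels of 0.38 TPM with shETV4 and 0.23 TPM with shRFP and Alb at 0 in both. Of 8 progenitor, biliary and fetal liver markers 4 were evaluated: Spp1, Krt19 and Sox9 had differences of 0.17, 0.39 and 0.68 and Krt18 one of -0.65, while Krt8, Afp, Epcam and Krt7 were under 1 TPM in both libraries. The list summed to 590 TPM with shETV4 and 529 TPM with shRFP. Of 6 stellate cell and fibroblast markers 3 were evaluated, with differences of 0.19 to 0.37, and the list summed to 309 TPM with shETV4 and 261 TPM with shRFP. No marker was called, and the part of these markers in the results was not tested. The 6 leukocyte markers summed to 0.44 TPM with shETV4 and 0.84 TPM with shRFP, and the 4 endothelial markers to 0.66 TPM with shETV4 and 0.46 TPM with shRFP. In such bulk RNA, fewer cells of a type and less RNA per cell cannot be told apart.

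Ndufa5 stood alone among the subunits. Its TPM was 7.16-fold lower in the shETV4 library. On the log2(TPM + 1) scale its difference was -2.78, whereas the other 37 evaluated subunits lay between -0.56 and 0.53. Of the 46 evaluated members 32 lay above 0, beside 5395 of all 12968 evaluated genes. The 49 members together, Ndufaf genes included, summed to 8166 TPM with shETV4 and 7501 TPM with shRFP. The mitochondrially encoded subunits, which the naming rule does not take in, summed to 5542.5 TPM with shETV4 and 7815 TPM with shRFP. Among the assembly factors Ndufaf4 was called lower, just past 2-fold on that scale at -1.03. Of 46 evaluated members 2 were called lower, Ndufa5 and Ndufaf4, beside 7.06% of all evaluated genes. None was called higher, beside 3.39% of all genes. The members' median difference was 0.09, beside -0.10 over all 12968 genes.

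Promoters are shown because complex I genes are transcribed from separate start sites and the hairpin is directed at an ETS-family factor, whose relatives bind the letters GGAA. RefSeq windows on GRCm38.p6 run from 250 bases before to 50 after a start, and 40 of the 46 evaluated members were matched to 42 windows. Capitals mark 3 sets of letters searched on both strands: CCGGAAG (an ETS core), TGCGCA (part of the NRF1 motif, the same on both strands) and ATGGCGG (part of the YY1 motif). The last 2 were picked with the Ndufa5 windows in view. Ndufa5 has 2 windows, at chr6:24527477-24527776 and chr6:24527641-24527940, both on the minus strand and overlapping. Ndufaf4 is at chr4:24897833-24898132 on the plus strand, Ndufaf8 at chr11:120098684-120098983 on the plus strand and Ndufs3 at chr2:90904672-90904971 on the minus strand. Ndufaf4 is the other member called lower, Ndufaf8 the member with the highest difference, and Ndufs3 the core subunit with the highest.
Ndufa5, first window: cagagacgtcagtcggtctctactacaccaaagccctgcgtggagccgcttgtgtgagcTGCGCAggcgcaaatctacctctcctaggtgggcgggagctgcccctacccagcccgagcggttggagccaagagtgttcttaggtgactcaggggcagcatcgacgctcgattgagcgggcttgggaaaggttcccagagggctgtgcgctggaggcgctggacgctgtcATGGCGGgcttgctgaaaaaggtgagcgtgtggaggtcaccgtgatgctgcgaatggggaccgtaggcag
Ndufa5, second window: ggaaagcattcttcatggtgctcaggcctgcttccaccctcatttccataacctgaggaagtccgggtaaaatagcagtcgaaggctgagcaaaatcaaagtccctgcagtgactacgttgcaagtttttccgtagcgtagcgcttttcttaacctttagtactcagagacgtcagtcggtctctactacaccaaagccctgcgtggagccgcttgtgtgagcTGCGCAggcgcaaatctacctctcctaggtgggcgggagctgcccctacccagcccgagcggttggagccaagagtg
Ndufaf4: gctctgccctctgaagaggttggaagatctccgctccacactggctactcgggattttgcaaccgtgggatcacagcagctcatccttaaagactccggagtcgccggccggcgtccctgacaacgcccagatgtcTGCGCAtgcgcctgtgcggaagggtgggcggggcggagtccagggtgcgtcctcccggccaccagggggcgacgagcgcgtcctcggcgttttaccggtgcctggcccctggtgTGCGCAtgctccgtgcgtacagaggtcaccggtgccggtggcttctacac
Ndufaf8: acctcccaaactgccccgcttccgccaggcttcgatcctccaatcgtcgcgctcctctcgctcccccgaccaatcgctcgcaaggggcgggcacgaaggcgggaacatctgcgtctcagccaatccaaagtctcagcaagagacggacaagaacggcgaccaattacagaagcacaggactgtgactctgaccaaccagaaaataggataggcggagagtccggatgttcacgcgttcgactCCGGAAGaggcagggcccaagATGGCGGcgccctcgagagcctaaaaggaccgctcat
Ndufs3: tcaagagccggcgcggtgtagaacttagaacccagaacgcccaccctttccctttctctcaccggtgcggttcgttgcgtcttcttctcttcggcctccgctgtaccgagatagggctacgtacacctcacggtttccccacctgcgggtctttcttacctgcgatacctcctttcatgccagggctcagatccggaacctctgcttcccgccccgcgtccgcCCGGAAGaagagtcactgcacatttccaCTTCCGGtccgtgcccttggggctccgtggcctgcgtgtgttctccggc

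Both Ndufa5 windows held the same TGCGCA and neither held CCGGAAG. The shorter GGAA was not searched for, and both windows hold it in lower case. The ATGGCGG of the first window lies at chr6:24527540-24527546 and covers the annotated start codon of the 2 coding Ndufa5 transcripts. Ndufaf4 had TGCGCA at 2 places, Ndufaf8 had CCGGAAG and ATGGCGG, and Ndufs3 had CCGGAAG once on each strand.

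Over the members' 42 windows, 6 held CCGGAAG (14.3%), beside 18.0% of 12233 windows of genes evaluated here and 8.86% of all 32851 windows. TGCGCA was in 12 of the 42 (28.6%), beside 13.9% and 7.76% of those window sets. ATGGCGG was in 11 (26.2%), beside 8.09% and 4.05%. The TGCGCA and ATGGCGG shares, and their medians below, include Ndufa5, whose windows were in view when those letters were picked. Both windows of Ndufa5 count for TGCGCA, and both of Ndufa7 for ATGGCGG. The 6 members with CCGGAAG, all above 0, had differences of 0.09 to 0.64 and a median of 0.24, and the 34 without it a median of 0.03, with 24 above 0. Neither member called lower was among those 6. Over all evaluated genes 5395 of 12968 lay above 0, and no split by CCGGAAG was made for them. Members without a window are in neither count and include Ndufs1 (-0.56), Ndufaf6 (-0.55), Ndufa2 (0.21) and Ndufb9 (0.27). A link between these letters and the differences was not tested. For TGCGCA the medians were 0.04 over 11 members with it and 0.12 over 29 without. ATGGCGG gave medians of 0.01 over 10 and 0.13 over 30. A match is a run of letters in these windows, not a measured binding site, and its absence says nothing of a factor.

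Ndufa5 (ENSMUSG00000023089) encodes a small accessory subunit of the Q module. Its GRCm38 position is chromosome 6, minus strand, 24518666 to 24528013, and its exons overlap no exon of a different gene. Ndufa5 was measured at 21.1 TPM with shETV4 and 151 TPM with shRFP, 86.0% lower and a difference of -2.78. With shRFP it stood near the middle of the evaluated genes with subunit names, at rank 21 of 38. It was then at 90.8% of the median of the others, 166 TPM. With shETV4 it was the lowest of the 38, at 11.3% of the median of the others, 186 TPM. The second lowest difference among subunits, that of Ndufs1, was -0.56.

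Among all genes the difference of Ndufa5 had rank 27 from the lowest, and rank 5 among 11561 protein-coding genes. The 4 coding genes below it were Snurf, Prr14l, a short second record of Arhgef4, and Npas3, none above 26.04 TPM in either library. Of 1547 genes at 100 TPM or more with shRFP, 41 were called lower and 2 lay below Ndufa5, both non-coding. These were the misc_RNA gene Gm27533 at 0 TPM with shETV4 and 154 TPM with shRFP, and the pseudogene Gm37421 at 211 TPM with shETV4 and 1541 TPM with shRFP. These genes were named after their values were seen. Ndufa5 enters the set at 100 TPM or more only through the shRFP library, where it was high, so its place there is no separate support.

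The transcripts annotated for Ndufa5 number 4 and span 315 to 875 bases, of which 2 are coding; how reads were divided among them is unknown, and its part in the value was not tested. One other record, the processed pseudogene Gm12529, aligned to it at 94.6% identity over 112 bases and was listed at 0 in both libraries. Of all members, 26 had such an aligned record, 7 of them one at 1 TPM or higher. Among the 7 are the pseudogenes Ndufa11b, Ndufb4c and Ndufs6b, which aligned to the coding genes Ndufa11, Ndufb4 and Ndufs6. Neighbours of Ndufa5 within 50 kb were all but silent: Asb15, which starts 131 bases beyond the Ndufa5 start on the other strand, was at 0.03 TPM with shETV4 and 0.07 TPM with shRFP, and Iqub was at 0.05 TPM with shETV4 and 0.02 TPM with shRFP. Ndufa5 transcripts have a median GC content of 49.8%. Of 633 genes within 2 points of that GC content and at 50 to 500 TPM with shRFP, 9 were called lower, none lay below Ndufa5, and the median was -0.10. Ndufa5 enters this range, too, only through its shRFP level.

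**Figure D1:**
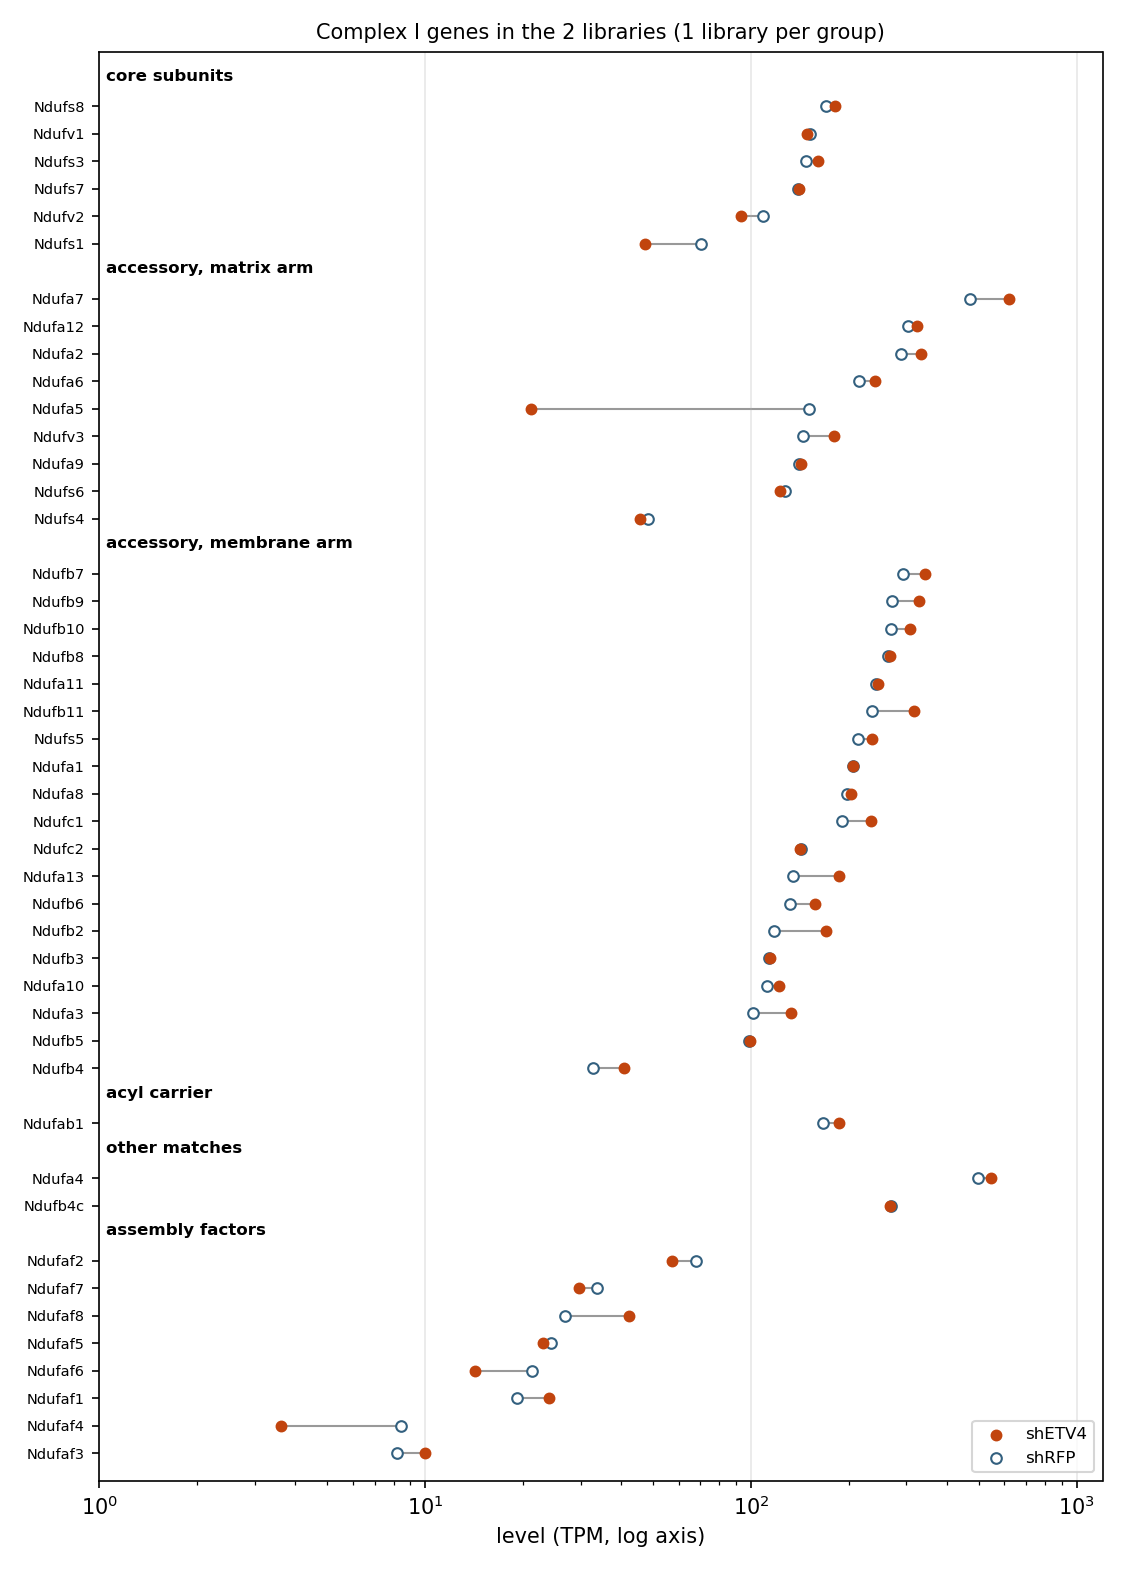
Level of 45 of the 46 evaluated complex I genes in TPM on a log axis, grouped by role, with filled points for the shETV4 library and open points for the shRFP library. Ndufa5 has the widest gap, 21.1 TPM with shETV4 against 151 TPM with shRFP, and most other pairs of points nearly touch.

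The core subunits carry the flavin and iron-sulphur clusters along which electrons travel. All 7 were evaluated, none was called in either direction, and their median difference was -0.01. Ndufs1, the large iron-sulphur subunit of the N module, was lowest, at 47.3 TPM with shETV4 and 70.0 TPM with shRFP. Ndufv2, which holds a cluster close to the flavin, was at 93.2 TPM with shETV4 and 109 TPM with shRFP, and the flavin-bearing Ndufv1 at 148 TPM with shETV4 and 152 TPM with shRFP. These N module genes all lay below 0, with Ndufs1 and Ndufv2 having the lowest GC content of the core, 45.1% and 44.5%. After subtraction of the running median over GC content, Ndufs1 stood at -0.12, Ndufv2 at 0.31 and Ndufv1 at -0.17. The core genes of the Q module differed little. Ndufs7, which lines the ubiquinone site, was at 141 TPM with shETV4 and 140 TPM with shRFP. Ndufs3 was at 161 TPM with shETV4 and 148 TPM with shRFP, and Ndufs8 at 181 TPM with shETV4 and 170.3 TPM with shRFP.

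Accessory subunits of the matrix arm surround that core. Without Ndufa5, the other 8 had a median difference of 0.13 and a range of -0.09 to 0.40. Ndufa9, a Q module partner of Ndufa5 that resembles short-chain dehydrogenases, was at 143 TPM with shETV4 and 141 TPM with shRFP. Ndufs4, whose loss causes a Leigh-like disease in mice, was at 45.6 TPM with shETV4 and 48.4 TPM with shRFP. The zinc-binding Ndufs6 was at 123 TPM with shETV4 and 127 TPM with shRFP. The matrix arm genes with the highest differences were Ndufa7 at 620.4 TPM with shETV4 and 469.98 TPM with shRFP, Ndufv3 at 180.3 TPM with shETV4 and 144 TPM with shRFP, and Ndufa2 at 333 TPM with shETV4 and 288 TPM with shRFP. Ndufa6 and Ndufa12 lay between these and Ndufa9, at 0.16 and 0.09.

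Accessory subunits of the membrane arm lay almost all on one side. Of 19, 18 lay above 0, none passed 2-fold, and the median was 0.19 with a range of -0.01 to 0.53. Over all evaluated genes 5395 of 12968 lay above 0. After GC adjustment 16 of the 19 lay above 0 and 3 below, with a median of 0.17. The 8 matrix arm genes without Ndufa5 then had a median of 0.30. Before adjustment Ndufb2 was highest in the membrane arm, at 170.1 TPM with shETV4 and 118 TPM with shRFP. Ndufa13, known also as GRIM-19, was at 186 TPM with shETV4 and 135 TPM with shRFP, and the X-linked Ndufb11 at 317 TPM with shETV4 and 235 TPM with shRFP. At the other end stood Ndufc2 at 142 TPM with shETV4 and 143 TPM with shRFP, Ndufa1, also X-linked, at 206 TPM with shETV4 and 205 TPM with shRFP, and Ndufb3 at 114 TPM with shETV4 and 113 TPM with shRFP. The 13 members not named so far in this group were Ndufa3, Ndufa8, Ndufa10, Ndufa11, Ndufb4, Ndufb5, Ndufb6, Ndufb7, Ndufb8, Ndufb9, Ndufb10, Ndufc1 and Ndufs5, with differences from 0.02 for Ndufb5 to 0.38 for Ndufa3. With the shETV4 values rescaled by a trimmed mean of log ratios, which lay at -0.11, the median over all 46 evaluated complex I members was 0.20. Without that scaling it was 0.09.

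A few matches of the naming rule are not plain subunits. Ndufab1, the mitochondrial acyl carrier protein that also serves fatty acid synthesis, was at 186 TPM with shETV4 and 166 TPM with shRFP. The pseudogene Gm48789, which aligned to Ndufab1 at 96.9% identity over 129 bases, was at 93.7 TPM with shETV4 and 0 TPM with shRFP. It also aligned to Ndufs7, at 91.3% over 115 bases. How reads were divided among these records is uncertain, and its part in their values was not tested. Ndufa4, now counted as a subunit of complex IV, was at 546 TPM with shETV4 and 499 TPM with shRFP. Ndufb4 was at 40.7 TPM with shETV4 and 32.8 TPM with shRFP, and its processed pseudogene Ndufb4c at 268 TPM with shETV4 and 269.8 TPM with shRFP. The Ndufb4c transcript, 390 bases long, matches Ndufb4 at 100% identity along its whole length, so the division of reads between them is uncertain; their summed level was 309 TPM with shETV4 and 303 TPM with shRFP. Ndufa4l2 and the pseudogenes Ndufa11b and Ndufs6b were listed at 0 in both libraries and were the 3 members not evaluated.

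Ndufaf assembly factors were expressed at lower level and spread more widely than the subunits other than Ndufa5. Their median level was 23.5 TPM with shETV4 and 22.8 TPM with shRFP, and their differences ran from -1.03 to 0.64 with a median of -0.13. Ndufaf3 and Ndufaf4, known from human cells to act together on the Q module, lay on opposite sides of 0. Ndufaf4 was at 3.61 TPM with shETV4 and 8.41 TPM with shRFP, 2.33-fold lower as a plain ratio of TPM. Ndufaf3 was at 9.99 TPM with shETV4 and 8.2 TPM with shRFP. Ndufaf4 transcripts have the lowest GC content of the members, 39.9%, and its difference was -0.28 after GC adjustment. It also came inside 2-fold with a pseudocount of 5 (-0.64), on the median-ratio scale (-0.98) and on the trimmed-mean scale (-0.94).

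Ndufaf6, a factor for early assembly, was at 14.2 TPM with shETV4 and 21.3 TPM with shRFP, a difference of -0.55 that stood at -0.60 after GC adjustment. Ndufaf2, which in human cells holds the place later taken by NDUFA12, was at 57.2 TPM with shETV4 and 67.8 TPM with shRFP, and 65.6% of its exonic sequence overlaps exons of a different gene. Ndufaf8 had the highest difference of all members, 0.64, at 42.2 TPM with shETV4 and 26.8 TPM with shRFP. Its human partner NDUFAF5 hydroxylates the NDUFS7 subunit, and mouse Ndufaf5 was at 22.9 TPM with shETV4 and 24.3 TPM with shRFP. Ndufaf1, which helps build the membrane arm, was at 24.0 TPM with shETV4 and 19.2 TPM with shRFP. Ndufaf7, a methyltransferase that acts on a core subunit in human cells, was at 29.7 TPM with shETV4 and 33.8 TPM with shRFP.

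Assembly factors with other names gave no call in 12 evaluated of 13 listed, with a median difference of 0.01. The lowest was Tmem70, at 37.0 TPM with shETV4 and 58.8 TPM with shRFP, and the highest Dmac2, at 11.6 TPM with shETV4 and 7.74 TPM with shRFP.

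**Figure D2:**
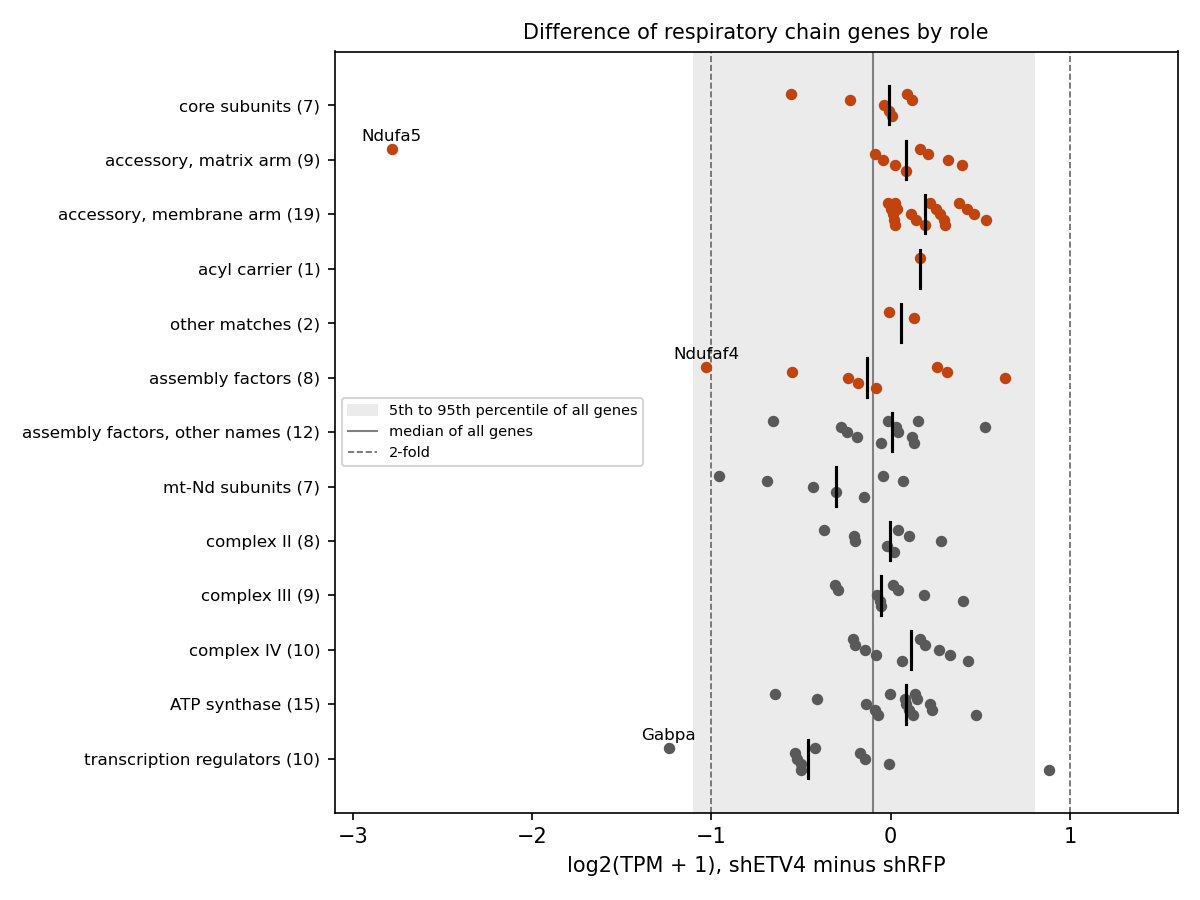
Difference in log2(TPM + 1), shETV4 minus shRFP, for each evaluated gene by role, with the number of genes in brackets, short bars for group medians, a grey band for the 5th to 95th percentile of all genes and dashed lines at 2-fold. Ndufa5 lies at -2.78, far left of every other respiratory chain gene shown, and Ndufaf4 and Gabpa at -1.03 and -1.24.

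Nuclear genes of the other respiratory complexes were close to level. Of 42 such genes of complexes II to V none was called, and their median difference was 0.03. The extremes were -0.64 for Atp5g2 and 0.48 for Atp5k, both of ATP synthase. After GC adjustment the median of the 42 was 0.17, with 30 above 0 and 12 below. The 46 evaluated complex I members then also had a median of 0.17, with 33 above 0 and 13 below. Atp5g2, a gene for the membrane ring, was at 30.9 TPM with shETV4 and 48.7 TPM with shRFP, and Atp5k at 602 TPM with shETV4 and 432 TPM with shRFP. Sdhaf3 (-0.37) and Sdhaf4 (0.28) bounded complex II, with a median of -0.0014. Uqcrb (-0.31) and Uqcr11 (0.40) bounded complex III, with a median of -0.06. Cox7b (-0.21) and Cox5b (0.43) bounded complex IV, with a median of 0.11.

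The 7 complex I subunits encoded by mitochondrial DNA had no call and a median difference of -0.30, with 6 below 0. Of these mt-Nd1 was lowest, at 1360 TPM with shETV4 and 2643 TPM with shRFP, and mt-Nd6 highest, at 821 TPM with shETV4 and 784 TPM with shRFP. Their median GC content was 35.7%, and after GC adjustment their median was 0.50. Apart from mt-Nd4l, their GC content of 33.0 to 37.6% lay below the range of the running median. There the running median was held at its end value, so the adjustment was not fitted at the GC content of these genes. All transcripts of mitochondrial DNA, which also encodes subunits of complexes III, IV and V, held 1.96% of the TPM with shETV4 and 2.93% with shRFP.

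Factors known to drive transcription of respiratory genes reached at most 54.7 TPM with shETV4 and 54.97 TPM with shRFP. Of 10 evaluated of 11 listed, 9 lay below 0, with a median of -0.46. Over all evaluated genes 7560 of 12968 lay below 0. After GC adjustment the median of the factors was -0.12, with 7 below 0 and 3 above. Of the 10, 1 was called lower, beside 7.06% of all genes. It was Gabpa, the DNA-binding ETS subunit of GABP, at 7.75 TPM with shETV4 and 19.6 TPM with shRFP. Its transcripts have a GC content of 41.4%, and its difference of -1.24 became -0.46 after GC adjustment. Esrra, an orphan receptor of mitochondrial gene programmes, was the one above 0, at 24.7 TPM with shETV4 and 13.0 TPM with shRFP. Nrf1 was at 37.0 TPM with shETV4 and 41.7 TPM with shRFP and Yy1 at 17.2 TPM with shETV4 and 24.8 TPM with shRFP. The coactivator gene Ppargc1a was not evaluated, at 0.27 TPM with shETV4 and 0.66 TPM with shRFP.

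Base composition moved with the differences of these libraries. Across 12947 genes, which are not independent replicates, the rank correlation of the difference with transcript GC content was 0.52, and across the 46 evaluated members, which share the same 2 libraries, it was 0.34. The members had a median GC content of 51.3%, beside 50.7% for all evaluated genes, and shorter transcripts, 687 bases beside 1278. After GC adjustment Ndufa5 was at -2.72 and was the 1 member called lower, beside 2.31% of all genes, and no member was called higher, beside 3.99%. The other 37 subunits then lay between -0.18 and 0.68.

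**Figure D3:**
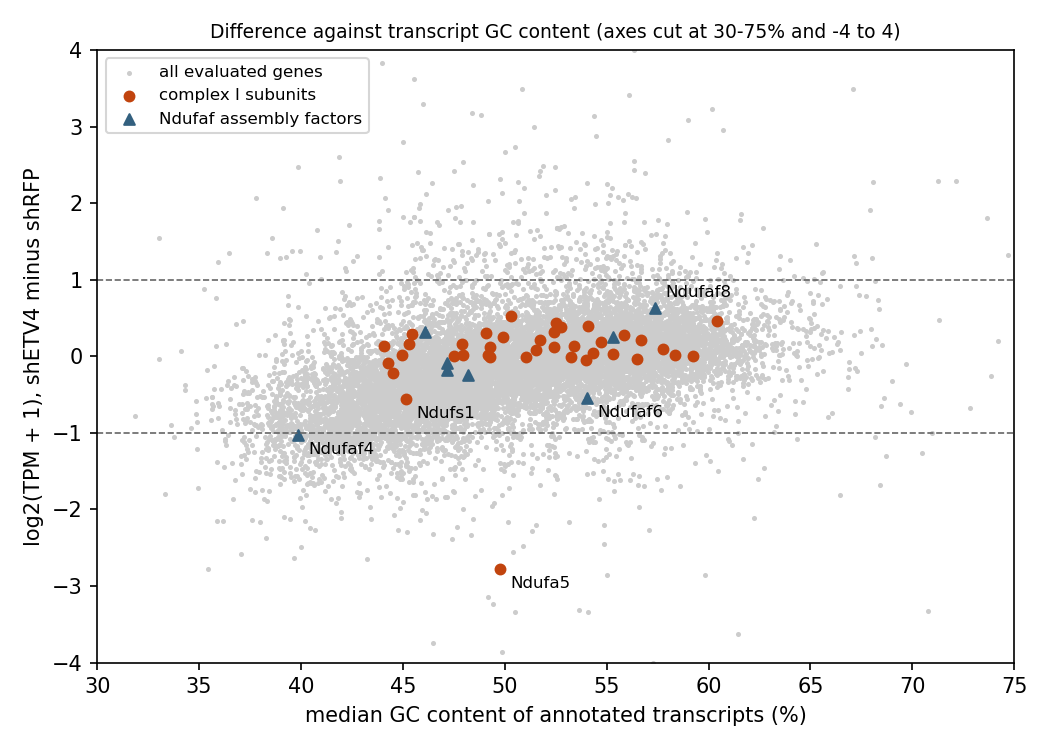
Difference in log2(TPM + 1), shETV4 minus shRFP, against the median GC content of each gene's transcripts in percent, with all evaluated genes in grey, complex I subunits as circles and Ndufaf genes as triangles; 53 genes lie outside the axes. Ndufaf4, at 39.9% GC, sits inside the grey cloud of GC-poor genes, while Ndufa5, at 49.8%, sits well below it.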

How the data were processed

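RNA from LPC-HRas cells was sequenced as 1 library per group after TruSeq preparation, per the labels' protocols. The deposited TPM were made by the authors; the unit was read from the values, whose totals were 999870.30 for shETV4 and 999999.77 for shRFP. HISAT2, RSEM and GRCm38.p4 are named without roles in the submitters' processing notes. Of 55640 records, 153 had no gene symbol and were left out. GENCODE M21 on GRCm38 gave coordinates, transcript length and GC content for 99.4% of named records. The alternatives changed the pseudocount, filter, scale, threshold, gene set and GC adjustment (running median over 50 bins). A median was counted as moved beyond 0.1 and a count beyond 1.5 times. Every member is counted, with both levels for those past 2-fold and for the 3 highest and lowest of each role; of other lists, those past 2-fold and the extremes. The values of 1 member are not reported here. Members, lists and tests were chosen with earlier results of these data known. One listed symbol, Coa1, was not matched. Copies were sought with BLAST+ 2.17.0 at 90% identity over 100 bases and 40% of the shorter record. Python 3.11.15, numpy 2.4.6, pandas 2.3.3 and matplotlib 3.10.9 were used, and the scripts were tested on simulated data.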

Additional observations from a re-analysis of the deposited data

Results flagged for a closer look

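Outside the set lies a record left out by its name. Ndufb1-ps was at 76.78 TPM with shETV4 and 60.6 TPM with shRFP; GENCODE lists it as a non-coding RNA, and RefSeq gives the symbol as an older name of the coding gene Ndufb1, a membrane arm subunit. Its difference of 0.34 lies inside the range of that arm's accessory subunits. The 153 records without a gene symbol held 2.67% of the TPM with shETV4 and 1.13% with shRFP. The unnamed records entered no comparison, and Ndufb1-ps entered only the values over all evaluated genes. Both are named here because they were above their level in the shRFP library.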

How the results depend on the processing

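The difference of Ndufa5 kept its direction and stayed past 2-fold under all 9 alternatives tried for it, between -2.83 and -2.58. Summing its pseudogene copy, listed at 0 in both libraries, left it at -2.78. That sum, the filter changes and the coding-gene set could not alter its value, as none of them changes an Ndufa5 level. Complex I members called lower numbered 1, Ndufa5, with a pseudocount of 5, on the median-ratio scale, on the trimmed-mean scale, at 3-fold and after GC adjustment, against 2 in the report; at 1.5-fold 1 member, Ndufaf8, was called higher. On the trimmed-mean scale the median was 0.20 over members, -0.0222 over Ndufaf genes and 0.23 over subunits other than Ndufa5. After GC adjustment the last 2 medians were 0.12 and 0.22, so that of the Ndufaf genes changed sign. All genes called lower and higher, 916 and 439 in the report, numbered 1459 and 674 with a pseudocount of 0.1, 267 and 167 with 5, 2591 and 1117 at 1.5-fold, and 162 and 162 at 3-fold. Genes called higher were 252 at 5 TPM or more and 247 among protein-coding genes, and genes called lower were 299 after GC adjustment. Thresholds and gene sets set their own counts; other causes were not tested. With 1 library per group no library could be left out, and no paired analysis was possible because no replicate exists. TPM keep no depth, so the counting error of low members such as Ndufaf4 is unknown.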
